A study of Mus musculus with 2 samples.

Results

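The transcripts described here are those of the mouse mitochondrial genome. They were taken as every feature whose symbol starts with mt-, which gave 37 of 40276 features: 13 messenger RNAs (mRNAs), 2 ribosomal RNAs (rRNAs) and 22 transfer RNAs (tRNAs). They were measured in 1 section of normal mouse brain and 1 section of normal mouse heart, each cut at 5 µm from formalin-fixed, paraffin-embedded (FFPE) tissue. Random primers copied the total RNA inside the section (spRandom-seq protocol), and barcoded spots of an array record where it came from. The labels name for both sections a reverse transcription primer without the second cell barcode, and they give no treatment of the animals. There was 1 library per tissue, so differences between brain and heart are those of 2 libraries, with no replicates and no p-values.

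The mitochondrial genome is a small circle that is transcribed along its whole length from both strands. The long precursors are cut mostly at the tRNAs, which lie between the other genes like punctuation, and the pieces become the rRNAs of the mitochondrial ribosome, the tRNAs it uses, and mRNAs for subunits of the respiratory chain and of ATP synthase. Heart muscle is known for its dense mitochondria. All other proteins of mitochondria, including the remaining subunits of the chain and the enzymes that make and mature these transcripts, are encoded in the nucleus.

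The tRNAs are where the sections differed most from gene to gene, so the sequences of 8 of them are shown before the values. They are mt-Tv and mt-Th, the tRNAs with the highest counts in brain and in heart; mt-Tf, mt-Tc and mt-Ts1, which were at least 2-fold apart between the sections; mt-Ta, which mt-Ts1 is set beside in the spot groups; and mt-Tn and mt-Ty, which were close to 0 in both. Sequences are from GENCODE release M21 on GRCm38, 5′ to 3′ on the gene's own strand, and the capitals mark the anticodon.
mt-Tf (phenylalanine, chrM:1-68, plus strand): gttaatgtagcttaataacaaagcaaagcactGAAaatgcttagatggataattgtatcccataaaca
mt-Tv (valine, chrM:1025-1093, plus strand): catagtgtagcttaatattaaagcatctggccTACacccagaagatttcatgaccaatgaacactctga
mt-Th (histidine, chrM:11546-11612, plus strand): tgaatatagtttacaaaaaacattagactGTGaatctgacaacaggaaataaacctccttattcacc
mt-Tc (cysteine, chrM:5192-5257, minus strand): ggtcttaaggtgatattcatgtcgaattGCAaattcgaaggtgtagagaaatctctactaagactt
mt-Ts1 (serine, chrM:6870-6938, minus strand): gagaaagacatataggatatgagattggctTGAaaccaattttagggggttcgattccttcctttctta
mt-Ta (alanine, chrM:5018-5086, minus strand): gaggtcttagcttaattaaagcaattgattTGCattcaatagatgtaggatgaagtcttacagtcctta
mt-Tn (asparagine, chrM:5089-5159, minus strand): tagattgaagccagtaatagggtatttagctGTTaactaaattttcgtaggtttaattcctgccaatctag
mt-Ty (tyrosine, chrM:5260-5326, minus strand): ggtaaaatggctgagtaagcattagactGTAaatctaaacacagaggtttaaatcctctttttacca

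Barcodes with at least 500 counts and 200 features were kept as spots: 4080 of 4992 in brain and 3726 of 4992 in heart. They held 37143546 counts in brain and 44613867 in heart. The barcode list is the same in both sections, and 3342 barcodes were kept in both; over these the mitochondrial mRNA share had a Spearman rho of -0.10 between the sections. The markers went with the tissue labels: the 7 neuronal markers summed to 3297 counts in each 1000000 (CPM) in brain and 149.7 CPM in heart, and the 5 cardiomyocyte markers summed to 5.79 CPM in brain and 6837 CPM in heart. Nuclear rRNA, the parts of the ribosomal DNA unit, took 31.1% of the counts in brain and 48.5% in heart, which lowers every other feature of the heart on a scale of all counts. The median log2 ratio of heart over brain was -0.71 over the 6345 features that reached 20 CPM in 1 section or more. Scaled to counts outside nuclear rRNA, it was -0.11 over the 8651 features that reached 20 CPM on that scale. With mitochondrial RNA left out of the total as well, it was 0.10 over 9323 features. These medians cover different sets of features, so their differences are not from the scale alone. Levels are given in CPM of all counts unless another scale is named. All intervals are 95% intervals for counting error only. They assume that no molecule was counted more than once, and whether this holds is not given in the sources used here.

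Taken as classes, mitochondrial mRNA and rRNA were higher in heart, and tRNA was close between the sections. The 13 mRNAs held 0.622% of counts in brain and 1.52% in heart, a ratio of 2.44 (interval 2.43 to 2.45). The 2 rRNAs held 3.83% and 6.11%, a ratio of 1.60 (1.59 to 1.60). The mRNA and rRNA ratios were larger on both other scales, at 3.26 and 2.14 outside nuclear rRNA, and at 3.59 and 2.35 outside nuclear rRNA and mitochondrial RNA. The 22 tRNAs held 0.474% in brain and 0.415% in heart, which puts brain 1.14-fold above heart (1.13 to 1.15) on all counts, but the direction turned to 1.17-fold and 1.29-fold higher in heart on the other scales. Scaling cancels between classes of the same section: there were 0.763 tRNA counts per mRNA count in brain and 0.274 in heart, and 6.16 and 4.03 rRNA counts per mRNA count. In a section, fewer cells or mitochondria and less RNA in each of them cannot be told apart.

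**Figure D1:**
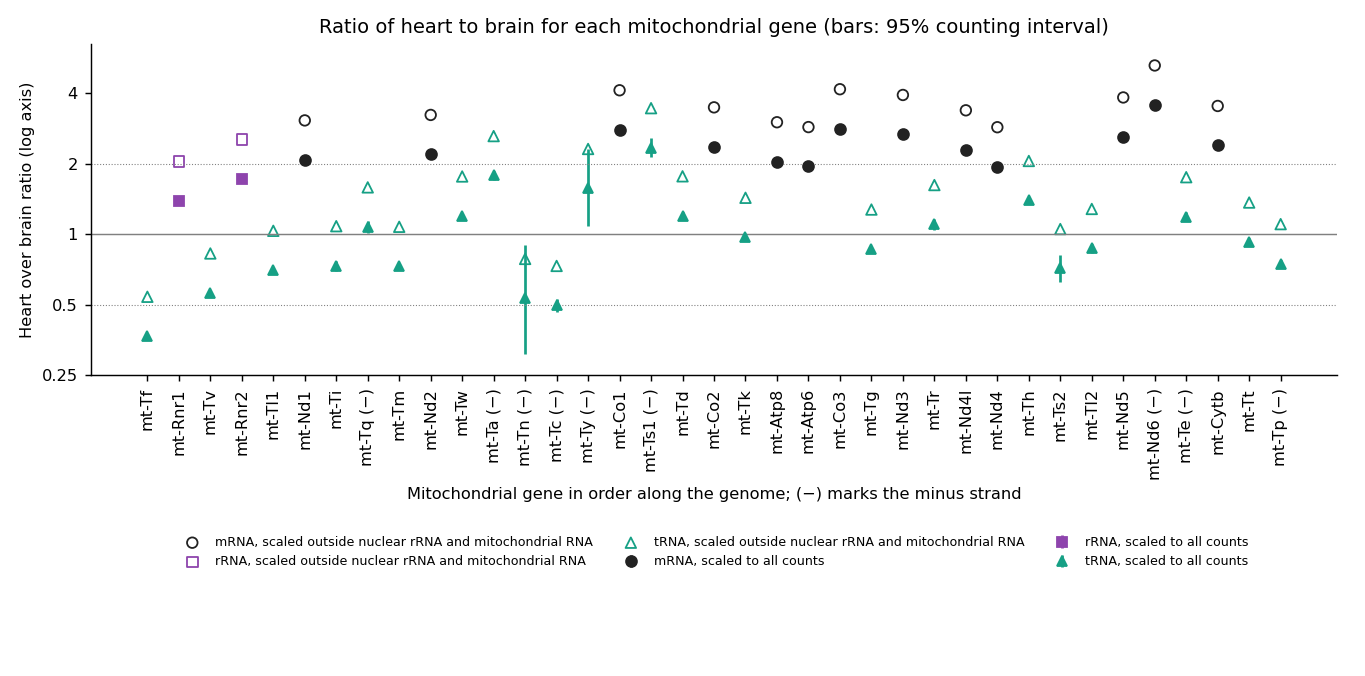
Ratio of heart to brain (vertical log axis) for each of the 37 genes in order along the mitochondrial genome, with 95% counting intervals as bars on the filled points. Filled points are scaled to all counts and open points to counts outside nuclear rRNA and mitochondrial RNA; all 13 mRNAs lie above 1 on both scales, while the tRNAs spread on both sides of 1.

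All 13 mRNAs were higher in heart on each of the 3 scales. On all counts, 11 of the 13 were at least 2-fold higher in heart, where 12% of the 6345 features reached that size, and none was higher in brain, a direction in which 39.5% of features passed that size. The median over the 13 was a log2 ratio of 1.24. Outside nuclear rRNA 13 of 13 were at least 2-fold higher in heart (18.9% of 8651 features were, and 22.6% passed that size in brain), and outside nuclear rRNA and mitochondrial RNA 13 of 13 again (22.4% of 9323 features, with 19.0% higher in brain). No mRNA reached 4-fold on all counts, where 5.41% of features did.

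The 7 mRNAs for complex I, the enzyme that takes electrons from NADH, summed to a ratio of 2.36. mt-Nd1 was at 353 CPM in brain and 735 CPM in heart, a ratio of 2.08 (2.04 to 2.13). mt-Nd2 was at 767 and 1685 CPM, a ratio of 2.20 (2.17 to 2.23). mt-Nd3 was at 96.4 and 258 CPM, a ratio of 2.67 (2.58 to 2.78). These genes encode membrane subunits of the proton-pumping arm, as do mt-Nd4, mt-Nd4l and mt-Nd5. mt-Nd4 was at 772 and 1504 CPM, a ratio of 1.95 (1.92 to 1.97), one of the 2 mRNAs that missed 2-fold. mt-Nd4l, which overlaps mt-Nd4 by 7 bases on the same strand, was at 64.5 and 148.3 CPM, a ratio of 2.30 (2.19 to 2.41), and it had the lowest level of the mRNAs in both sections. mt-Nd5 was at 734 and 1916 CPM, a ratio of 2.61 (2.57 to 2.65). By CPM it was number 5 of the mRNAs in brain and number 2 in heart.

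mt-Nd6 stood furthest from brain. It is the only mRNA on the minus strand and also encodes a complex I subunit. It was at 266 CPM in brain and 952 CPM in heart, a ratio of 3.57 (3.50 to 3.65), the largest of the 37 genes on all counts. Within the mRNA class its share was 4.28% in brain and 6.28% in heart. Set against mt-Nd5, which converges on it from the other strand and overlaps it by 14 bases, there were 0.363 mt-Nd6 counts per mt-Nd5 count in brain and 0.497 in heart. Whether counting used strand is not given in the sources used here, so counts of mt-Nd6 and of RNA copied from the opposite strand over the same bases cannot be told apart.

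mt-Cytb, the one mitochondrial gene of complex III, was at 766 CPM in brain and 1838 CPM in heart, a ratio of 2.40 (2.37 to 2.43). The 3 mRNAs of complex IV, cytochrome c oxidase, which passes electrons to oxygen, had together the highest ratio of the complexes, 2.72. mt-Co1, which encodes the catalytic subunit, had the highest level of the mRNAs in both sections, 1220 and 3418 CPM, a ratio of 2.80 (2.77 to 2.83). mt-Co3 was at 269 and 761 CPM, a ratio of 2.83 (2.77 to 2.89). mt-Co2 was at 383 and 906 CPM, a ratio of 2.37 (2.32 to 2.41), below the other 2 subunits by more than the counting intervals. The 2 mRNAs of ATP synthase had the lowest ratio, 1.98. They share a transcript, in which their reading frames overlap. mt-Atp8 was at 155 and 318 CPM, a ratio of 2.05 (1.98 to 2.11), and mt-Atp6 at 374 and 729 CPM, a ratio of 1.95 (1.91 to 1.99). There were 0.415 mt-Atp8 counts per mt-Atp6 count in brain (0.403 to 0.428) and 0.435 in heart (0.427 to 0.444).

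Between genes, levels were compared per kb of gene length. Across the 13 mRNAs the level ran from 217 CPM per kb (mt-Nd4l) to 790 CPM per kb (mt-Co1) in brain and from 499 to 2212 CPM per kb for the same genes in heart. As a description over 13 genes of one genome, the level per kb in brain and in heart had a Pearson r of 0.91 and a Spearman rho of 0.86. mt-Nd6 changed place most, from 513 CPM per kb and rank 8 in brain to 1834 CPM per kb and rank 2 in heart. Scaled to the summed mRNAs, which shows each gene's share of the class, mt-Nd6, mt-Co1, mt-Co3, mt-Nd3 and mt-Nd5 held a larger share in heart, and the other 8 a smaller one.

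**Figure D2:**
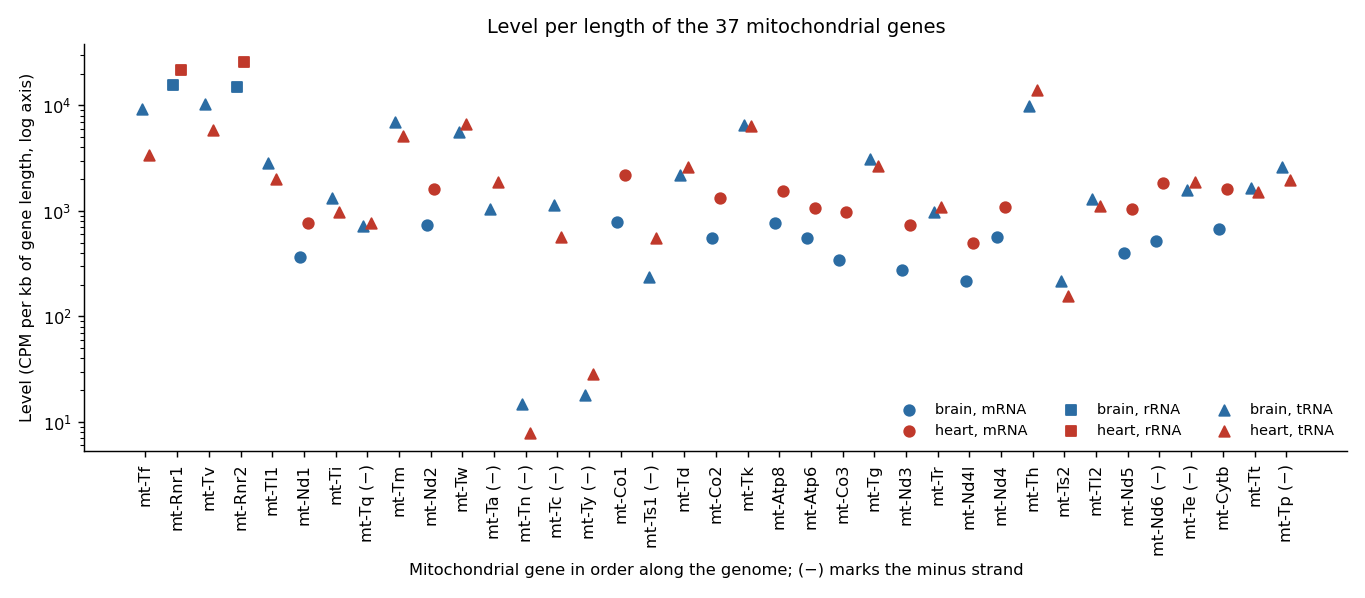
Level in CPM per kb of gene length (vertical log axis) of the 37 genes in order along the mitochondrial genome, brain in blue and heart in red, with circles for mRNAs, squares for rRNAs and triangles for tRNAs. The rRNAs lie above the tRNAs and mRNAs in both sections, and mt-Tn and mt-Ty lie below every other gene.

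The 2 rRNAs were the most abundant transcripts of the mitochondrial genome in both sections. mt-Rnr1, the 12S rRNA of the small subunit, was at 14883 CPM in brain and 20710 CPM in heart, a ratio of 1.39 (1.39 to 1.40). mt-Rnr2, the 16S rRNA of the large subunit, was at 23416 and 40400 CPM, a ratio of 1.73 (1.72 to 1.73). The 2 genes lie in one primary transcript with mt-Tv between them. There were 1.57 counts of 16S per count of 12S in brain and 1.95 in heart. Per length the order turned: 16S was at 0.9498 of the level of 12S in brain and at 1.18 of it in heart.

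The tRNAs did not move as a block. On all counts 9 of 22 were higher in heart and 13 in brain, and the split was 14 to 8 outside nuclear rRNA and 18 to 4 outside nuclear rRNA and mitochondrial RNA. Their median log2 ratio was -0.15, beside -0.71 over the 6345 features at 20 CPM or more. At the 2-fold size, 1 was higher in heart and 2 in brain on all counts, below the shares of all features given above. Counted without the limit of 20 CPM, these numbers moved with the setting. They were 3 and 1 outside nuclear rRNA, and 4 and 0 outside nuclear rRNA and mitochondrial RNA. With every spot weighted equally they were 0 and 4, and 6 of 22 were higher in heart. The 3 and the 4 in heart include mt-Ty, which had only 45 counts in brain and 85 in heart. The 4 in brain include mt-Tn, which had only 39 and 25 counts. With the limit, 18.9% of all features were at least 2-fold higher in heart outside nuclear rRNA and 22.6% in brain. Outside nuclear rRNA and mitochondrial RNA these shares were 22.4% and 19.0%. The shares of all features were not computed without the limit or with equal weights.

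The first tRNAs of the genome were lower in heart on all counts. mt-Tf, at the start of the rRNA transcript, was at 630 CPM in brain and 232 CPM in heart, 2.72-fold higher in brain (2.66 to 2.78). mt-Tv, which lies between the rRNAs, was at 710 and 400 CPM, 1.78-fold higher in brain. Both stayed higher in brain on each of the 3 scales, mt-Tf at less than 2-fold on the last, in contrast to the rRNAs they flank. mt-Tl1, just after the 16S rRNA, was at 215 and 152 CPM, 1.42-fold higher in brain on all counts but 1.04-fold higher in heart outside nuclear rRNA and mitochondrial RNA. mt-Tc was at 75.4 and 37.6 CPM, 2.01-fold higher in brain (1.89 to 2.13), and it too stayed higher in brain on the 3 scales, though at less than 2-fold on the other 2, with spots of at least 1000 counts and 400 features, and with the mean of the barcodes below the spot threshold subtracted.

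Others were higher in heart. mt-Th, which lies just after mt-Nd4, was at 665 CPM in brain and 929 CPM in heart, a ratio of 1.40 (1.38 to 1.42), and it held 14.0% of the tRNA counts in brain and 22.4% in heart. mt-Ts1 was at 16.4 and 38.4 CPM, a ratio of 2.35 (2.14 to 2.58), and 1.81 with every spot weighted equally. mt-Ta was at 72.0 and 129 CPM, a ratio of 1.78 (1.70 to 1.87). These 3 were higher in heart on each scale. Of the other abundant tRNAs, mt-Tm was at 486 and 356 CPM, mt-Tk at 428 and 416 CPM, and mt-Tw at 376 and 451 CPM. The other 9 tRNAs, mt-Ti, mt-Tq, mt-Td, mt-Tg, mt-Tr, mt-Tl2, mt-Te, mt-Tt and mt-Tp, ran from 51.1 to 210.2 CPM in brain and from 55.1 to 183.8 CPM in heart, with ratios of heart over brain from 0.736 to 1.20.

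The range among tRNAs was wide. Each of the 22 serves codons that no other mitochondrial tRNA reads. mt-Tn had 39 counts in brain and 25 in heart, and mt-Ty had 45 and 85. mt-Ts2, the shortest tRNA, was at 12.9 and 9.21 CPM. In both sections the same 4 tRNAs, mt-Tn, mt-Ty, mt-Ts1 and mt-Ts2, were the lowest per length. Per kb the tRNAs ran from 14.8 to 10284 CPM in brain and from 7.89 to 13867 CPM in heart. As a description over 22 genes, their levels per kb in brain and heart had a Pearson r of 0.97 and a Spearman rho of 0.95. The 14 tRNAs on the plus strand had a median of 2982 CPM per kb in brain and 2653 in heart, and the 8 on the minus strand had medians of 882 and 673.

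In brain 17 of the 22 tRNAs lay above the highest mRNA per kb, and in heart 8 did. This comparison depends on the length used, since tRNAs are so short that reads may extend past their ends: with 50 bases added to every gene the numbers were 12 and 5. The median tRNA was at 2.92 times the median mRNA per kb in brain and 1.71 times in heart, and with the added bases at 1.81 and 1.03 times. mt-Th had 17.7 times the level per kb of its neighbour mt-Nd4 in brain and 12.7 times in heart.

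Across spots, the share of mitochondrial mRNA was higher and more variable in heart than in brain. To compare spots at one depth, each was thinned to 1500 counts outside nuclear rRNA, which left 3293 brain and 2942 heart spots; 787 and 784 were too shallow. The mRNA share had a median of 1.07% in brain, with quartiles of 0.80% and 1.33%, and a median of 3.13% in heart, with quartiles of 2.20% and 4.53%. Unthinned, the medians over all kept spots were 1.05% and 2.93%. The upper quartile of brain lay below the lower quartile of heart. The rRNA share had medians of 6.47% and 12.3%. The tRNA share had a median of 0.80% in both sections, but its 95th percentile was 1.67% in brain and 2.60% in heart. The upper quartile of the mRNA share was 1.67 times the lower in brain and 2.06 times in heart. The variance of the mRNA counts of a spot was 2.83 times their mean in brain and 11.0 times in heart. At an equal relative spread this multiple grows with the mean, which was 16.3 counts in brain and 50.8 in heart, so it overstates the difference in spread.

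**Figure D3:**
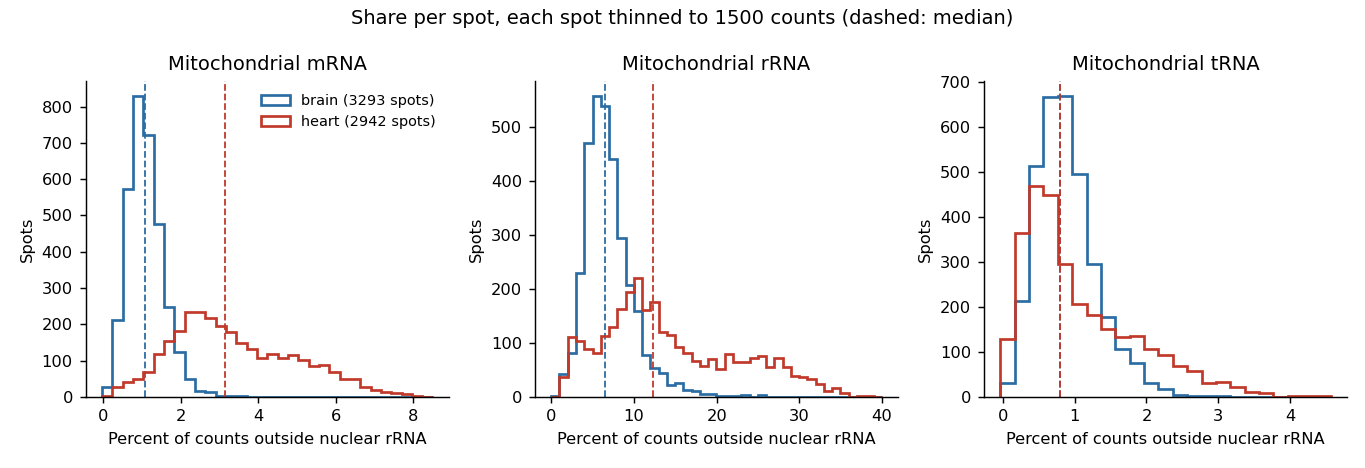
Number of spots (vertical) by the percent of counts outside nuclear rRNA that came from mitochondrial mRNA, rRNA or tRNA, for brain (blue) and heart (red), each spot thinned to 1500 counts. Dashed lines are medians, 1.07% and 3.13% for mRNA and 0.80% in both sections for tRNA; the heart spreads wider in all 3 classes.

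The classes went together across spots, more so in heart. Correlations here describe spots of 1 library, which share their reagents and depth, and have no p. The Spearman rho of mRNA with rRNA was 0.65 in brain and 0.92 in heart, and of mRNA with tRNA 0.45 and 0.84. A thinned spot held a mean of 16.3 mRNA and 104 rRNA counts in brain, and of 50.8 and 215 in heart. Fewer counts lower a rho, and the part of this in the difference between the sections was not tested. With the summed counts of 40 nuclear genes of the respiratory chain the mRNA share had a rho of 0.05 in brain and 0.26 in heart. In the spot groups described below these genes held 0.111% to 0.190% of counts outside nuclear rRNA in brain and 0.307% to 0.749% in heart. A spot thinned to 1500 counts thus holds few of them, above all in brain. Counting error at so few counts lowers a rho, and its part was not tested. Depth and nuclear rRNA moved with the mRNA share too: rho was -0.40 and -0.31 with the counts of a spot, and 0.35 and 0.50 with its share of nuclear rRNA. Their part in the result was not tested.

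In heart, mt-Nd6 followed the other mRNAs less closely than an mRNA of similar count did. Its rho with the sum of the other 12 was 0.39, while mt-Co2, with 3.10 counts per thinned spot beside 3.07 for mt-Nd6, had a rho of 0.61 with its other 12. The variance of the counts over spots was 1.32 times the mean for mt-Nd6 and 1.80 times for mt-Co2. In brain the counts were too few to judge whether there was such a gap. There mt-Nd6 had 0.72 counts per thinned spot and a rho of 0.17, and mt-Co3 had 0.69 counts and a rho of 0.17.

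Of features with at least 100 CPM outside the mitochondrial genome, the one whose spot pattern was most like the mRNA share was the same in both sections: Ndufs7, the symbol of a nuclear complex I subunit, with a rho of 0.28 among 1219 features in brain and 0.45 among 574 in heart. In heart it was followed by Myh6, Myl2 and Mb, the genes of the main myosin heavy chain, the ventricular light chain and myoglobin, with rho of 0.31, 0.31 and 0.29. Rn18s-rs5, an rRNA gene listed outside the ribosomal DNA unit, had 0.27. The lowest in heart were the globin genes Hbb-bt (-0.33) and Hbb-bs (-0.31) and then Gm33838 (-0.27). In brain Rn18s-rs5 (0.23), Slc1a2, the glutamate transporter of astrocytes (0.19), Fcgr3 (0.18) and Rny3 (0.18) came next, and Kcnip4 (-0.24), Opcml (-0.23) and Nrg3 (-0.23), all genes of neurons, were the lowest. All of these brain values are weak.

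Spots were also grouped within each section on nuclear genes, with mitochondrial RNA and the genes listed for mitochondria left out, which gave 9 groups in brain and 6 in heart. The lists do not hold every nuclear gene of mitochondria: Cox6a2, of complex IV, was not left out and is among the leading genes of heart group 1. Groups are called by number and leading genes. Their mRNA share of counts outside nuclear rRNA ran from 0.508% to 1.38% in brain and from 1.75% to 4.79% in heart, so the lowest heart group lay above the highest brain group. For rRNA the ranges of the groups overlapped, 2.46% to 9.60% in brain and 5.33% to 22.1% in heart. There were 0.617 to 1.003 tRNA counts per mRNA count in the brain groups and 0.210 to 0.393 in the heart groups.

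**Figure D4:**
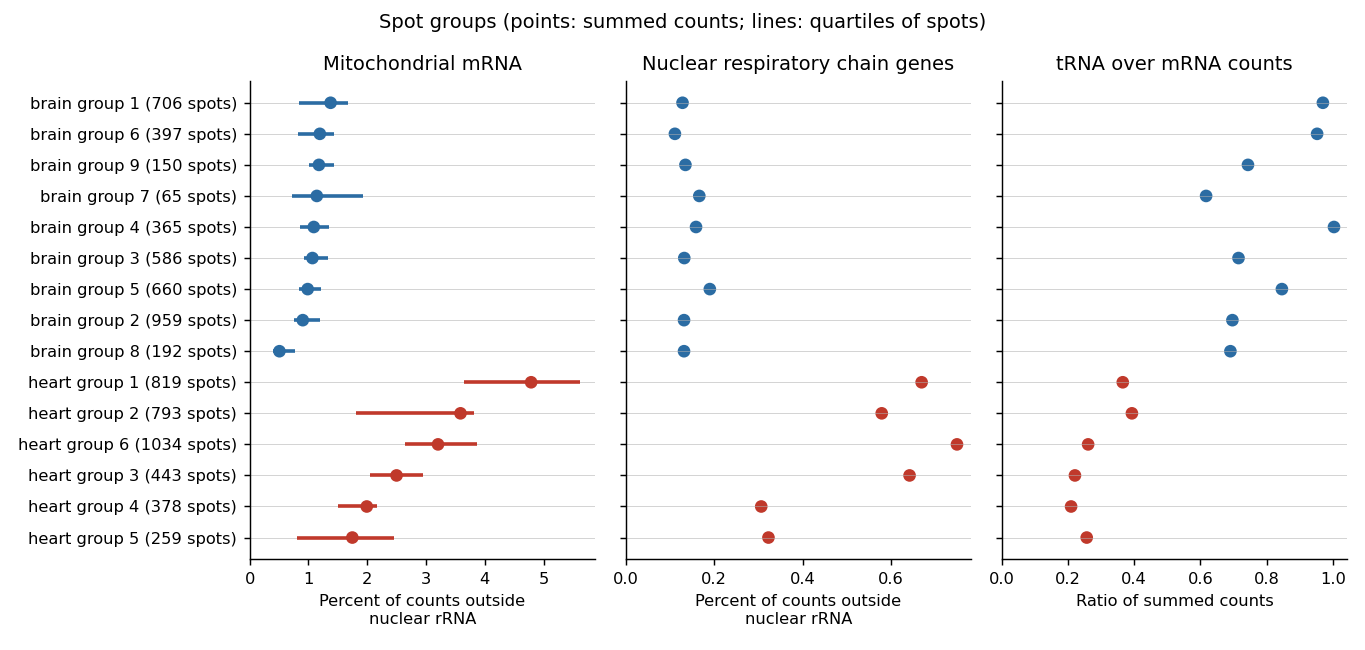
For each spot group (rows, with its number and number of spots; brain blue, heart red) the share of mitochondrial mRNA and of 40 nuclear respiratory chain genes in percent of counts outside nuclear rRNA, and tRNA counts per mRNA count. Points are summed counts and lines the quartiles of spots; all 6 heart groups lie above all 9 brain groups in mRNA share and below them in tRNA per mRNA.

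In brain, group 1, led by Ddn, Ppp1r9b and Slc1a3, had the highest mRNA share, 1.38%, over 706 spots with a median of 1320.5 counts. Group 8, led by Hpca, Iqgap2 and Shisa6, had the lowest, 0.508%, over 192 spots with a median of 35549.5 counts. All 37 genes were examined in these groups except mt-Tn and mt-Ty, whose counts are too few. In group 8 each of the 35 lay below its level in the section (both as shares of counts outside nuclear rRNA), the mRNAs at 0.53 to 0.66 of it and the rRNAs at 0.44 to 0.45. The share of nuclear chain genes in group 8, 0.132%, lay within the range of the other groups, 0.111% to 0.190%. The other 7 brain groups lay between 0.905% and 1.20%: group 2 (Pdzrn3) 0.905%, group 5 (Shox2) 0.989%, group 3 (Pmch) 1.07%, group 4 (Mobp) 1.09%, group 7 (Ttr) 1.14%, group 9 (Penk) 1.18% and group 6 (Ptgds) 1.20%. Group 4, led by the myelin genes Mobp and Cldn11, had the most tRNA per mRNA, 1.003, and mt-Nd6 in it was at 1.53 of its section level beside 1.11 to 1.30 for the other 12 mRNAs. mt-Nd6 was above the other 12 in group 6 (1.54 beside 1.10 to 1.42) and group 7 (1.52 beside 1.05 to 1.46) as well. In group 2 it was below the other 12 (0.89 beside 0.94 to 1.06), and in groups 1, 3, 5, 8 and 9 it lay inside their range. Across the 9 groups the mRNA share and the median depth had a rho of -0.75; its part in these differences was not tested. With only spots of at least 1500 counts outside nuclear rRNA, the highest group was 2.91 times the lowest in brain, beside 2.71 with all spots. The groups depend on the resolution of the clustering: at 1.0 the lowest brain group was one led by Dsp, Maml2 and Prox1, at 0.362%, and the highest was 4.24 times the lowest, and at 0.3 the highest was led by Ptgds.

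In heart, group 1, led by Tmem50a, Ckm and Cox6a2, had the highest mRNA share, 4.79%, over 819 spots. Ckm and Cox6a2 encode muscle creatine kinase and a muscle subunit of complex IV. Group 2 (Dnah7c, Mocos) followed with 3.59%, at a median of only 1090 counts per spot, then group 6 (Lrrc2, Lpl, Myl3) with 3.21% over 1034 spots and group 3 (Lrtm1, Kcnd2) with 2.50%. Group 4, led by the globin genes Hba-a1 and Hbb-bt, was at 1.99%, and group 5, led by the atrial myosin light chains Myl7 and Myl4, at 1.75%. With only spots of at least 1500 counts outside nuclear rRNA, groups 1 and 2 were close, at 4.86% over 723 spots and 4.77% over 151. Groups 6, 3, 4 and 5 were then at 3.21%, 2.50%, 2.00% and 1.75%. Across the 6 groups the mRNA share and the median depth had a rho of -0.66, and the part of depth was not tested. At a resolution of 0.3 the lowest heart group was led by the globin genes, at 1.92%. The share of nuclear chain genes had another order, highest in group 6 (0.749%) and lowest in group 4 (0.307%) and group 5 (0.323%). The erythrocyte markers summed to 12023 CPM of counts outside nuclear rRNA in group 4 and to 142 to 516 CPM in the other 5 groups. The share of nuclear rRNA ran from 43.9% in group 5 to 51.8% in group 1 and had a rho of 0.94 with the mRNA share over the 6 groups; its part in the order was not tested.

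In heart groups 1 to 4, mt-Nd6 lay nearer to its section level than the plus-strand mRNAs did to theirs. Among tRNAs, the minus-strand median lay nearer to the section level than the plus-strand median. This pattern was singled out after its values were seen. For mt-Nd6 the gap was widest in the globin-led group 4. The 12 mRNAs of the plus strand were at 0.47 (mt-Atp8) to 0.80 (mt-Cytb) of their section level, while mt-Nd6 was at 1.14 of it, with 3246 counts. The rRNAs were at 0.44 and 0.46. The 14 plus-strand tRNAs had a median of 0.48 of their section level and the 6 minus-strand tRNAs examined had a median of 0.80: mt-Ta and mt-Ts1 were both at 0.99, with 378 and 113 counts, but mt-Tc was at 0.46 with 51 counts. In group 3 mt-Nd6 was at 0.90, above the other 12 mRNAs at 0.75 to 0.87, and the tRNA medians were 0.82 on the minus strand and 0.67 on the plus strand. In group 1, where all mRNAs were above their section level, mt-Nd6 was the lowest of them at 1.39, beside 1.54 to 1.87. In group 5, which had a low mRNA share like group 4, mt-Nd6 was at 0.59, inside the range of the other 12 mRNAs, 0.55 to 0.66. The erythrocyte sum moved with group 4, as given above, and neither its part nor that of strand in counting was tested.

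**Figure D5:**
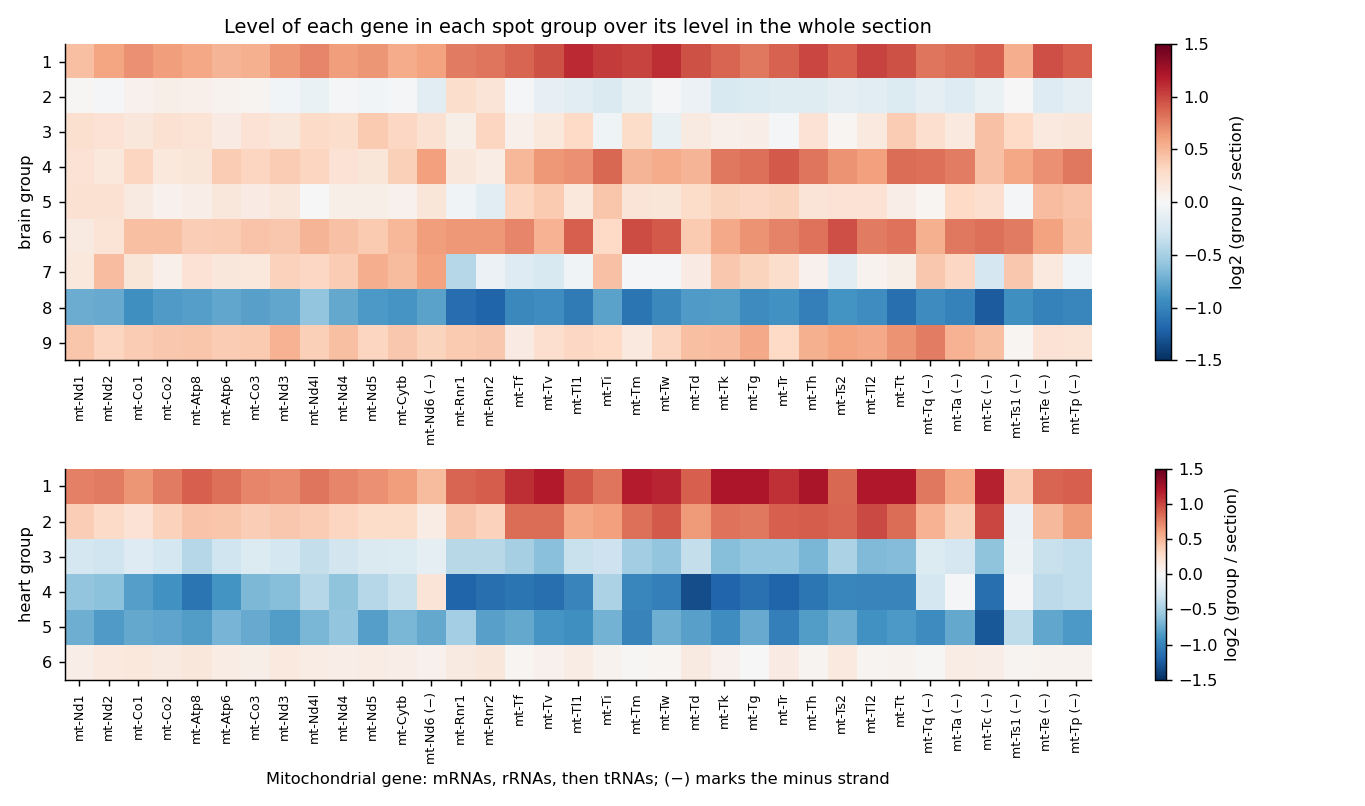
Log2 of the level of each gene in a spot group over its level in the whole section (colour, blue below and red above), for 9 brain groups (top) and 6 heart groups (bottom), with mt-Tn and mt-Ty left out. Brain group 8 is blue in all 35 columns, and in heart group 4 mt-Nd6 is above its section level while the other 12 mRNAs are below theirs.

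Nuclear genes that make and mature mitochondrial transcripts were mostly low, and few reached the 20 CPM needed for a call, so the calls say little about them. For these and the later lists, counts without that limit have no share of all features beside them. That share was computed only with the limit, so whether such counts are high or low cannot be told. Of 17 genes of transcription and replication, 0 reached 20 CPM. Without that limit 1 was at least 2-fold higher in heart, Twnk, the helicase that unwinds the mitochondrial genome, at 2.58 CPM in brain and 5.92 in heart, a ratio of 2.29 (1.81 to 2.92). Tfam, which packages the genome and starts transcription, was at 9.93 and 9.26 CPM, Polg at 13.2 and 12.6, Mterf3 at 11.9 and 13.7 and Tfb2m at 7.57 and 13.8. Of 23 genes of RNA processing and decay, 3 reached 20 CPM and 0 of them were 2-fold apart: Lrpprc, which stabilizes the mRNAs, was at 70.8 and 64.4 CPM, Grsf1 at 30.9 and 41.9 and Ptcd3 at 30.2 and 32.4. Without the limit, 3 of the 23 were at least 2-fold higher in heart and 1 in brain. Hsd17b10, a part of the enzyme that cuts the ends of the tRNAs, was at 2.23 and 11.5 CPM, a ratio of 5.14 (4.07 to 6.56). Of 17 RNA modification genes, 2 reached 20 CPM: Nsun2 was 2-fold higher in brain, at 42.8 and 21.1 CPM, and Mettl15 was at 26.1 and 26.4. Without the limit, 1 of the 17 was at least 2-fold higher in heart, Trmt5 at 2.53 and 7.02 CPM, and 2 in brain, with Trit1 at 19.5 and 8.58 CPM. Outside nuclear rRNA and mitochondrial RNA 1 of 4, 5 of 14 and 0 of 5 genes at 20 CPM were at least 2-fold higher in heart, beside 22.4% of features. At 5 CPM or more in 1 section, the median log2 ratio on all counts was -0.03 over 11 genes of transcription and replication, -0.12 over 20 of processing and decay and -0.03 over 11 of modification, and -0.42 over all 13027 features.

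Of 17 synthetases that load mitochondrial tRNAs, 6 reached 20 CPM, and 0 of the 17 were 2-fold apart on all counts at any level. Outside nuclear rRNA and mitochondrial RNA 1 of the 7 at 20 CPM was higher in heart by that size, beside 22.4% of features. That one was Lars2, for leucine, which stood far above the rest at 1026 CPM in brain and 1827 in heart, a ratio of 1.78. Where in the gene these counts lie cannot be seen from the deposited values, which are sums per gene, and what they count was not tested. Over spots Lars2 had a rho with mt-Rnr2 of 0.08 in brain and 0.23 in heart. Fars2, for phenylalanine, came next with 132 and 117 CPM, then Nars2 with 26.9 and 21.3 and Rars2 with 25.7 and 14.4. Of 78 mitochondrial ribosomal protein genes, 7 reached 20 CPM. Of these, 2 were at least 2-fold higher in heart and 0 in brain, beside 12% and 39.5% of features. On the last scale 10 of 22 were higher in heart by that size and 0 in brain, beside 22.4% and 19.0% of features. Without the limit, 9 of the 78 were at least 2-fold higher in heart and 1 in brain on all counts, and the median log2 ratio was 0.14 over the 53 at 5 CPM or more. Mrps9 was at 36.6 and 28.5 CPM, Mrps28 at 27.6 and 34.3, and Mrpl42, with the largest ratio at 20 CPM or more, at 8.75 and 29.5. Mrpl48, with the lowest such ratio, was at 21.3 CPM in brain, with a ratio of 0.752.

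The nuclear subunits of the respiratory chain and of ATP synthase were mostly higher in heart, and in 4 of the 5 lists the median ratio was above that of the mitochondrial mRNAs. On all counts 4 of 7 core complex I genes, 4 of 4 complex II genes, 9 of 9 complex III genes, 8 of 10 complex IV genes and 9 of 11 ATP synthase genes were at least 2-fold higher in heart with 20 CPM there, and none was called in brain. Over the 6345 features at 20 CPM or more, 12% were called in heart and 39.5% in brain. Without the limit of 20 CPM the counts of listed genes in heart were 5, 4, 9, 8 and 10. Below it, 2 complex IV genes were at least 2-fold higher in brain, Cox6a1 at 13.3 and 6.32 CPM and Cox8a at 10.4 and 4.82 CPM. In complex I, Ndufs1 was at 46.2 CPM in brain and 106 in heart, a ratio of 2.30. Ndufs7 was at 2079 and 2323 CPM, a ratio of 1.12, far above every other gene of its list, with the same limit as for Lars2, and was left out of the nuclear sums above. Complex II has no mitochondrially encoded subunit; Sdha was at 62.1 and 184 CPM, Sdhc at 16.8 and 50.2 and Sdhb, with the largest ratio, 3.93, at 21.3 and 83.8. In complex III, Uqcrc1 was at 21.2 and 98.2 CPM, a ratio of 4.62, Uqcrc2 at 35.6 and 95.1, a ratio of 2.67, and Uqcrfs1, the iron-sulphur subunit, at 11.0 and 59.1, a ratio of 5.38. In complex IV, Cox6b1 was at 126 CPM in heart, 6.30 times its level in brain, Cox4i1 was at 36.5 and 104, a ratio of 2.86, and Cox6c at 32.1 and 95.6, a ratio of 2.98. Cox7a2 had the lowest ratio of those at 20 CPM or more, 2.22. In ATP synthase, Atp5a1 was at 101 and 403 CPM, a ratio of 3.99, Atp5b at 109 and 397, a ratio of 3.65, Atp5c1 at 44.2 and 139, a ratio of 3.15, and Atp5g1 at 8.21 and 62.7, a ratio of 7.63. Atp5o had the lowest ratio of its list, 1.07, at 20.8 and 22.1 CPM. The median log2 ratios of these lists were 1.20, 1.73, 2.10, 1.53 and 1.72, beside 1.24 for the 13 mitochondrial mRNAs.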

How the data were processed

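Spatial total RNA counts of 1 brain and 1 heart section were analysed. The authors used STARsolo and mm39, per the submitters' processing notes. The deposited values are whole-number counts per feature and spot barcode. The version, the use of strand, the merging of molecular tags, the counting of introns and the handling of reads that map to several places, such as nuclear copies of mitochondrial DNA, are not given in the sources used here. No value column was left unused.

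Barcodes with at least 500 counts and 200 features were kept. Sums over kept spots were turned into CPM of all counts, with exact Poisson, binomial or conditional binomial intervals at 95%. A gene was called higher at a fold of 2 with at least 20 CPM in the higher section. For correlations spots were thinned once to 1500 counts outside nuclear rRNA (seed 1), where nuclear rRNA is the 23 ribosomal DNA features and Rn18s-rs5 was left in the total. Spot groups came from Leiden clustering (resolution 0.6) of a graph of 15 neighbours over 20 principal components of 2000 variable genes. Groups of at least 30 spots are described. No doublet caller was run. The ratios of summed counts and their intervals were tested on simulated sums. The thinning, the correlations and the spot groups were not tested in that way.

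Lengths, gene order, strand and tRNA sequences were looked up by gene ID in GENCODE release M21 (GRCm38), an older build than that of the files; 35551 of 40253 Ensembl IDs and all 37 members were found there. The anticodon was found by a search for paired stem bases around the triplet of each amino acid. Python 3.11.15, numpy 2.4.6, scipy 1.17.1, pandas 2.3.3, scanpy 1.11.5 and matplotlib 3.10.9 were used.

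The genes, the lists and the rules were chosen with earlier results of these data known. All 37 genes are accounted for, and values are given for each mRNA and rRNA, for the 6 tRNAs with the highest and the 4 with the lowest sums, for mt-Tf, mt-Tv and mt-Tl1, and for tRNAs at least 2-fold apart. mt-Ta and Tfam were added after their values were seen. From nuclear lists the genes with the highest levels and the largest ratios were named, except 1 that is not reported here, and over spots the 5 features most like and the 3 least like the mRNA share.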

Additional observations from a re-analysis of the deposited data

Results flagged for a closer look

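Barcodes below the spot threshold, which were left out of the values of the report, also held mitochondrial RNA. In brain they held 156957 counts, of which 0.489% were mitochondrial mRNA, 3.27% mitochondrial rRNA and 0.511% mitochondrial tRNA. In heart they held 154831 counts, of which 1.48% were mRNA, 4.77% rRNA and 0.470% tRNA. In these barcodes too the mRNA share was above brain in heart, and each share was within 1.5-fold of that of the kept spots of its section. Subtracting the mean of these barcodes from every kept spot left the ratio of heart over brain at 2.43 for mRNA. Their median was 148 counts in brain and 54 in heart, beside 5981 and 9049.5 in kept spots, so this subtraction could change little.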

How the results depend on the processing

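No paired analysis was possible because each tissue has 1 library. The ratio of heart over brain for mitochondrial mRNA kept its direction in every alternative run: it was 3.263 scaled outside nuclear rRNA, 3.591 also outside mitochondrial RNA, 2.157 with every spot weighted equally and, on a scale added after seeing the data, 3.358 outside nuclear rRNA and Rn18s-rs5. For rRNA the same settings gave 2.135, 2.35, 1.358 and 2.197, and spots of at least 1000 counts and 400 features gave 1.6. For tRNA the direction reversed to 1.172, 1.29 and 1.206 on the 3 other scales, and equal weights gave 0.7742. The scales differ by construction in how much of each library is left in the total. The number of mRNAs at least 2-fold higher in heart ran from 9 to 13, and at a fold of 4 it was 0. Relative to the 13 mRNAs, 6 genes turned to a lower share in heart, mt-Nd1 (0.854), mt-Nd2 (0.9013), mt-Co2 (0.971), mt-Atp8 (0.8388), mt-Nd4l (0.9432) and mt-Cytb (0.9843), where the 2 genes already below 2-fold, mt-Nd4 and mt-Atp6, were also lower. Gene by gene, the ratio lay on the other side of 1 for 5 of 37 genes outside nuclear rRNA, 9 outside nuclear rRNA and mitochondrial RNA and 3 with equal weights, all of them tRNAs, and for 0 with all barcodes, stricter spots or background subtracted. Using all barcodes or subtracting the background changes few counts, so these settings could move the ratios little. At a grouping resolution of 1.0 the highest brain group was 4.24 times the lowest. Depth limits mt-Tn and mt-Ty, whose counts in a section were 85 or fewer.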
